A study of Mus musculus with 16 samples.

Results

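The cytosolic ribosome of the mouse is built from ribosomal RNA and a fixed set of ribosomal proteins, and the genes that encode those proteins are described here in RNA that was immunoprecipitated (IP) with Sox2 and in the matched input. Members were the protein-coding genes whose symbol is Rpl or Rps followed by a number, together with Rplp0, Rplp1, Rplp2 and Rpsa. Pseudogenes, the Rps6k kinases, Rps19bp1 and the paralogs whose symbol ends in l were left out. The rule found 78 of the 53379 genes in the count table, 46 of the large and 32 of the small subunit. RNA came from male mouse embryonic stem cells (mESC) kept in serum and LIF with PD0325901 and CHIR99021, inhibitors of MEK and GSK3 that help to keep the cells pluripotent. The cells carried no stated genetic change and were crosslinked either with UV light (UV-RIP), which links protein to RNA in direct contact, or with formaldehyde (fRIP), which also links protein to protein. There were 4 groups with 4 libraries each (UV-RIP input, UV-RIP IP, fRIP input and fRIP IP), and a replicate number (3, 4, 5 or 6) joins an IP library to the input library made from the same sonicated lysate. Libraries were made from total RNA after depletion of ribosomal RNA. An IP with another antibody was not analysed here, so that each comparison is with input.

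Ribosomal proteins of the large subunit surround the peptidyl transferase centre and the exit tunnel, and those of the small subunit hold the decoding site and the mRNA channel. Their mRNAs are short, abundant and translated together, since nearly all begin with a terminal oligopyrimidine (TOP) tract through which mTOR signalling controls translation. Many of the genes hold small nucleolar RNAs (snoRNAs) in their introns, and their mRNAs have left many processed pseudogenes in the genome. In cells that grow as fast as mESC they make up a large part of the mRNA.

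Counts were of unique molecular identifiers (UMIs), each of which marks an original fragment, on gene bodies with introns included. Libraries held between 12456298 and 21211537 UMIs. Changes are log2 fold changes from edgeR's quasi-likelihood fit, with p adjusted by Benjamini-Hochberg over all 22936 genes tested. A gene counted as called when it differed by over 1.5-fold with an adjusted p under 0.05. The mESC label was borne out by 8 of 9 marker genes, whose summed level was between 2185 and 4689 UMIs per 1000000 of the library's total (CPM), against 1.56 to 3.30 for 5 fibroblast markers, 4.48 to 8.80 for 4 primitive endoderm markers and 2.11 to 6.30 for 3 mesoderm markers. The exception was Sox2 itself, which had fewer than 3 UMIs in each library. Input replicate 4 of fRIP stood apart from the others, with 2.81% of its UMIs on small noncoding (misc) RNA genes where the remaining fRIP inputs had 0.349% to 0.620%. The main counts of fRIP, and the values of single genes that turn on it, are therefore also given without replicate 4, while the results on length, subunits, snoRNAs and gene lists use all 4.

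Of the 78 members 76 passed the filter of 3 UMIs in at least 1 library, and 75 averaged at least 100 UMIs a library, between 278 and 9401. Rpl13 had 0 UMIs and Rpl24 a mean of 0.125. The gene body of Rpl13 lies wholly under Gm20388 on the same strand, and 98.7% of that of Rpl24 lies under Gm28037. Rpl13a (88.6% under Gm45713) and Rps10 (76.9% on the same strand) overlap other genes to a lesser extent, and 9 members in all had over 50% of their body under another gene on either strand. What part this had in their counts was not tested. Rps27rt had a mean of 6.38 UMIs.

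Reads were kept only where they mapped once, and the processed pseudogenes share much of the members' sequence. Of all windows of 34 bases in a member's longest annotated transcript, a median of 47.3% also occurred in a transcript of another gene, with a range from 1.18% to 92.3%. Coding sequences of Rpl39 and Rps19 are printed to show where a short read could not tell a member from its copies. Rpl39 is among the members with the lowest IP to input ratios, and Rps19 was the member nearest to no change in UV-RIP on the scale of total UMIs. Capitals mark the bases that lie under a window found in another gene, on GENCODE vM21 and GRCm38.
Rpl39: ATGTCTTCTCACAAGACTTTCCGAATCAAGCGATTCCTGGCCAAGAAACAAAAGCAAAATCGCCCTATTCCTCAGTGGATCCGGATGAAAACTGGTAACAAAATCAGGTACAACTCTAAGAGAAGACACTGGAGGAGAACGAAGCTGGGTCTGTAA
Rps19 (first 240 bases): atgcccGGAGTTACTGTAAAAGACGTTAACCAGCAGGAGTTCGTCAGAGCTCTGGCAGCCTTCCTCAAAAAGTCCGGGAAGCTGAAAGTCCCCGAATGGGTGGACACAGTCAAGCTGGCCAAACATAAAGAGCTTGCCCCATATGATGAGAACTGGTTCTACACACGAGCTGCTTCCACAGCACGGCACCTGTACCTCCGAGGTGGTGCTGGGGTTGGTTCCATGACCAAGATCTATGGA
The sequence of Rpl39 spans chrX:37082701-37085127 on the minus strand in 3 coding exons and has 156 bases. Every window of it was found elsewhere, in 15 other genes, so no single read of 34 bases inside this coding sequence was unique on its own. Reads came in pairs, and a pair could still be placed by its other read. The 438 bases of Rps19 (chr7:24885136-24889767, plus strand) had 84.9% of windows elsewhere. Over the longest transcript, the measure used for all members, the share was 23.3% for Rpl39 and 27.1% for Rps19, both below the median of 47.3%. Reads on introns or on untranslated ends with unique bases could still count. Across the 75 members the share of windows found elsewhere had almost no relation to the log2 fold change (Pearson's r = -0.043 in UV-RIP and 0.001 in fRIP).

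Members took a smaller share of the UMIs in the IP than in the input of both crosslinkers. In UV-RIP input a mean of 0.884% ± 0.0417 (SD, n = 4) of all UMIs lay on the members, and 0.927% at most. The UV-RIP IP libraries had between 0.594% and 0.644%, a mean of 0.616% ± 0.0208 (SD, n = 4), and lay below every input. The fRIP input libraries spread more widely, with 1.17%, 1.26%, 1.41% and, in replicate 4, 2.09%. In the fRIP IP libraries the share was between 0.650% and 0.855%, a mean of 0.756% ± 0.0840 (SD, n = 4), again below every input of that crosslinker. The share of UMIs on mitochondrial ribosomal protein genes, which are nuclear genes for the ribosome of the mitochondrion, went from 0.218% ± 0.00334 to 0.183% ± 0.00186 in UV-RIP and from 0.246% ± 0.0273 to 0.191% ± 0.00540 in fRIP (SD, n = 4 each).

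**Figure D1:**
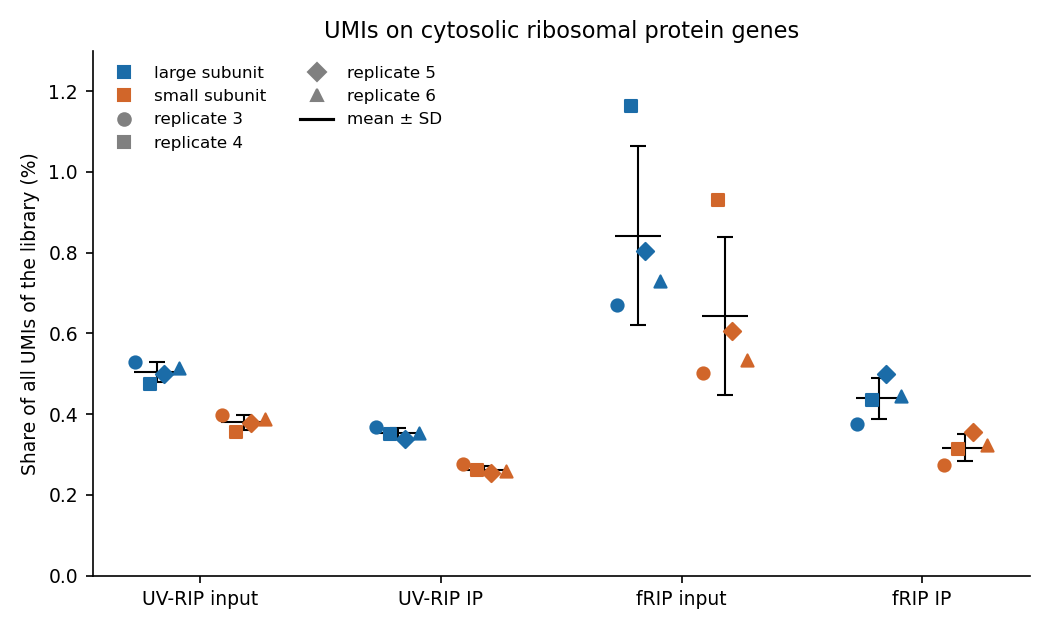
Share of each library's UMIs on large subunit and small subunit genes, in percent, by group; each point is a library and the lines are the mean ± SD of 4. The IP libraries lie below the inputs of the same crosslinker for both subunits, and fRIP input replicate 4 is the highest point at 1.16% for the large subunit and 0.929% for the small subunit.

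UV-RIP asks which RNAs are in direct contact with the precipitated protein. No member was called enriched in UV-RIP and 35 of the 76 tested were called lower, against 0.68% of all genes tested called higher and 5.53% called lower. With no fold threshold 74 members were lower and 0 higher, where 29% of all genes were lower and 6.6% higher. The median log2 fold change of the members was -0.57, from -1.27 to -0.01, and that of all genes tested was -0.17. Every IP library was below every input library for 73 of the 76, which held for 25% of all genes tested and 45.7% of those averaging at least 100 UMIs a library. In all 4 pairs the IP was below its input for 75, against 34.4% and 57%. The rRNA-like genes Gm26917 and Gm42418 took 20.5% to 24.7% of UMIs in the UV-RIP IP and 13.7% to 14.02% in the input, which lowers every other gene on the scale of total UMIs. Under edgeR's TMM scaling, which brings the median of all genes to 0.01, the median of the members was -0.39, 16 were called lower and 0 higher, against 1.85% and 2.2% of all genes.

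Rps29, a small zinc-binding protein of the head of the small subunit, was the lowest member in UV-RIP. It had 25.5, 19.5, 24.0 and 25.96 CPM in the inputs (replicates 3 to 6) and 8.79, 10.5, 9.62 and 10.5 in the IP libraries. The groups were well apart, and the log2 fold change was -1.27 ± 0.08 (SE), a 2.40-fold lower level. Rplp2, an acidic protein of the stalk that recruits elongation factors, had 96.3, 95.7, 95.4 and 94.9 CPM in the inputs and 47.5, 48.4, 44.1 and 48.1 in the IP. Its inputs were the most even of the genes described here, and it was 2.03-fold lower (log2 fold change -1.02 ± 0.05, SE). Rpl36a, which lies near the exit site for transfer RNA, had 28.7, 24.1, 32.8 and 30.3 CPM in the inputs against 13.6, 13.5, 14.8 and 15.9 in the IP. It was 2.00-fold lower. Adjusted p by edgeR was 1.1e-59 for Rps29, 3.9e-101 for Rplp2 and 5.7e-47 for Rpl36a. These values are so small because the fit estimated an infinite prior degree of freedom, which gives every gene the spread of the trend. The SEs in UV-RIP rest on that spread too, and not on the gene's own. For Rps29 the log2 IP to input ratios of the pairs were -1.53, -0.89, -1.32 and -1.30 (replicates 3 to 6). DESeq2, on the same library sizes, also called 35 members lower and 0 higher. Over all genes it called 882 lower and 78 higher, where edgeR called 1268 and 156. With 74 members lower at any fold, the fold threshold sets the count of members, so it does not test edgeR's p-values.

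At the other end, Rps19, mutated in Diamond-Blackfan anaemia, was the member nearest to 0 in UV-RIP on the scale of total UMIs. It had 97.4, 84.6, 94.3 and 91.8 CPM in the inputs and 94.4, 85.2, 96.3 and 90.3 in the IP, so the groups overlapped throughout. The log2 fold change was -0.01 ± 0.04 (SE; adjusted p = 0.944, edgeR). Rpl3, a protein of the peptidyl transferase centre, had 250, 250, 259 and 259 CPM in the inputs and 217, 204, 216 and 215 in the IP, a log2 fold change of -0.26 ± 0.04 (SE). Rps18, of the head of the small subunit, was alike at -0.26 ± 0.04 (SE). Both were lower in all 4 pairs without reaching the fold threshold. The order near 0 depends on the scaling. Under TMM the log2 fold change of Rps19 turned to 0.17 (adjusted p = 1.7e-04, edgeR), under the fold threshold, and those of Rpl3 and Rps18 were -0.07 and -0.08 (adjusted p = 0.100 and 0.104, edgeR). With DESeq2's median-of-ratios Rps19 was likewise at 0.17 (adjusted p = 0.013).

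The formaldehyde libraries ask the same of RNAs in the same complexes as the protein. In fRIP 69 of the 76 members were called lower and none was called enriched, against 10.7% of all genes called lower and 8.8% called higher. With no fold threshold all 76 were lower, where 21.9% of all genes were lower and 17.6% higher. The median log2 fold change was -0.99, from -2.04 to -0.37, and that of all genes tested was -0.03. All 76 members were lower in each of the 4 pairs, against 26.9% of all genes and 43.1% of those averaging at least 100 UMIs. For 72 every IP library was below every input library, against 19.2% and 33.3%. The pair medians over the members were -0.91, -1.55, -0.78 and -0.76 for replicates 3 to 6, so that replicate 4 was the lowest pair by a wide margin. Without replicate 4 the count was 63 lower (9.67% of all genes) and 0 higher, with a median of -0.81. With a trend on gene body length removed, an alternative chosen after the data were seen, 40 were lower (7.12% of all genes). The median was then -0.59. Across 75 members the log2 fold changes of both crosslinkers, which share no library, had a Pearson's r of 0.808 and a Spearman's rho of 0.791, as a description.

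**Figure D2:**
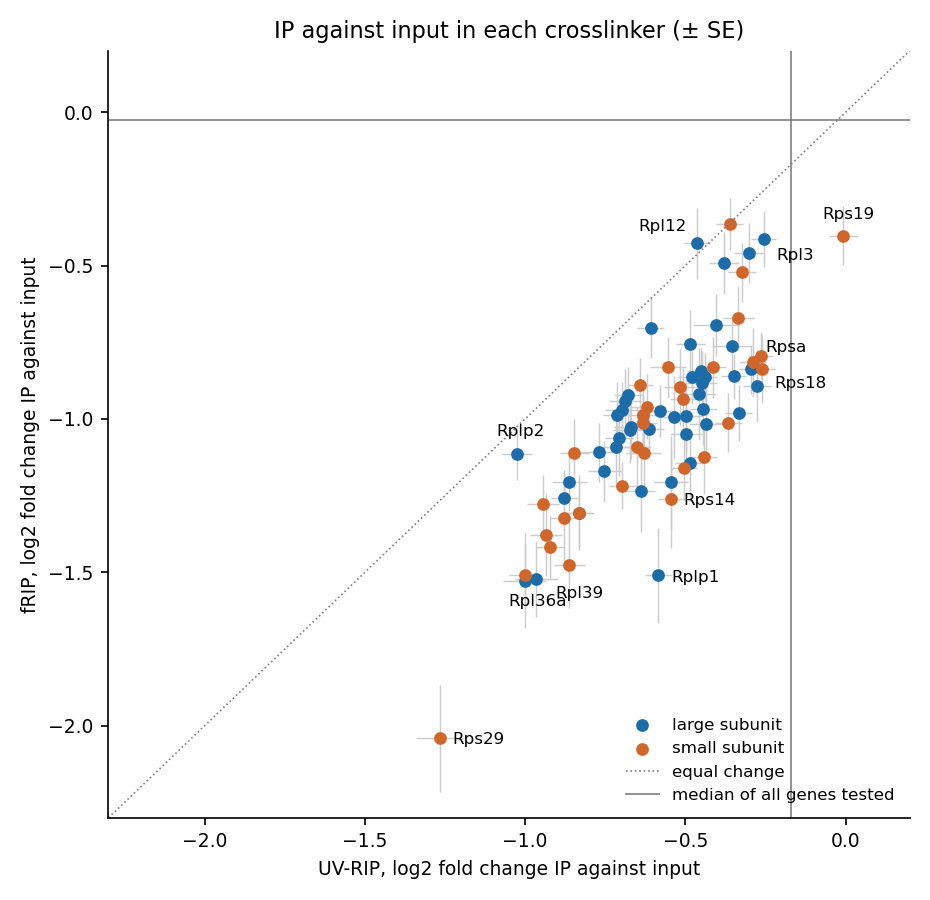
Log2 fold change of IP against input for 75 members in UV-RIP (horizontal) and fRIP (vertical), each with its SE, coloured by subunit; solid lines are the medians of all genes tested (-0.17 and -0.03) and the dotted line marks equal change. Nearly every member lies below the dotted line, Rps29 is lowest on both axes, and Rplp1 lies far below members with a similar UV-RIP value.

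Rps29 was again the lowest member. Its fRIP inputs had 28.9, 60.6, 27.1 and 21.4 CPM and its IP libraries 5.87, 7.44, 9.76 and 8.52. It was 4.11-fold lower (log2 fold change -2.04 ± 0.17, SE; adjusted p = 2.4e-09, edgeR), and without replicate 4 the log2 fold change was -1.68. Rpl36a had 36.2, 78.6, 39.2 and 35.2 CPM in the inputs and 13.1, 13.7, 19.3 and 16.5 in the IP. This was a log2 fold change of -1.53 ± 0.16 (SE), and -1.18 without replicate 4. Rpl39, which lines the exit tunnel, had 37.0, 85.3, 40.4 and 33.6 CPM in the inputs and 15.3, 20.1, 12.6 and 16.9 in the IP. Its log2 fold change was -1.52 ± 0.12 (SE), and -1.31 without replicate 4. In each of these genes the input of replicate 4 was the highest library, while its IP was within or near the range of the other IP libraries.

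Rps19 and Rpl3 were among the members least lowered in fRIP. Rps19 had 98.7, 179, 121 and 106 CPM in the inputs and 82.0, 96.1, 99.8 and 94.3 in the IP, a log2 fold change of -0.40 ± 0.10 (SE; adjusted p = 0.0015, edgeR). Rpl3 stood at -0.42 ± 0.09 (SE). For Rps19 the groups overlapped, although each pair was lower. Neither reached the fold threshold, and members that also missed it include Rps15a, Rpl38, Rpl10a and Rpl12, at -0.52, -0.49, -0.46 and -0.43. Without replicate 4 the values were smaller, -0.24 for Rps19, -0.26 for Rpl3, -0.32 for Rpl38 and -0.19 for Rpl12. With the gene body trend removed Rps19 (-0.09), Rpl38 (-0.11) and Rpl12 (-0.05) had an adjusted p of 0.551, 0.435 and 0.811 in edgeR.

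**Figure D3:**
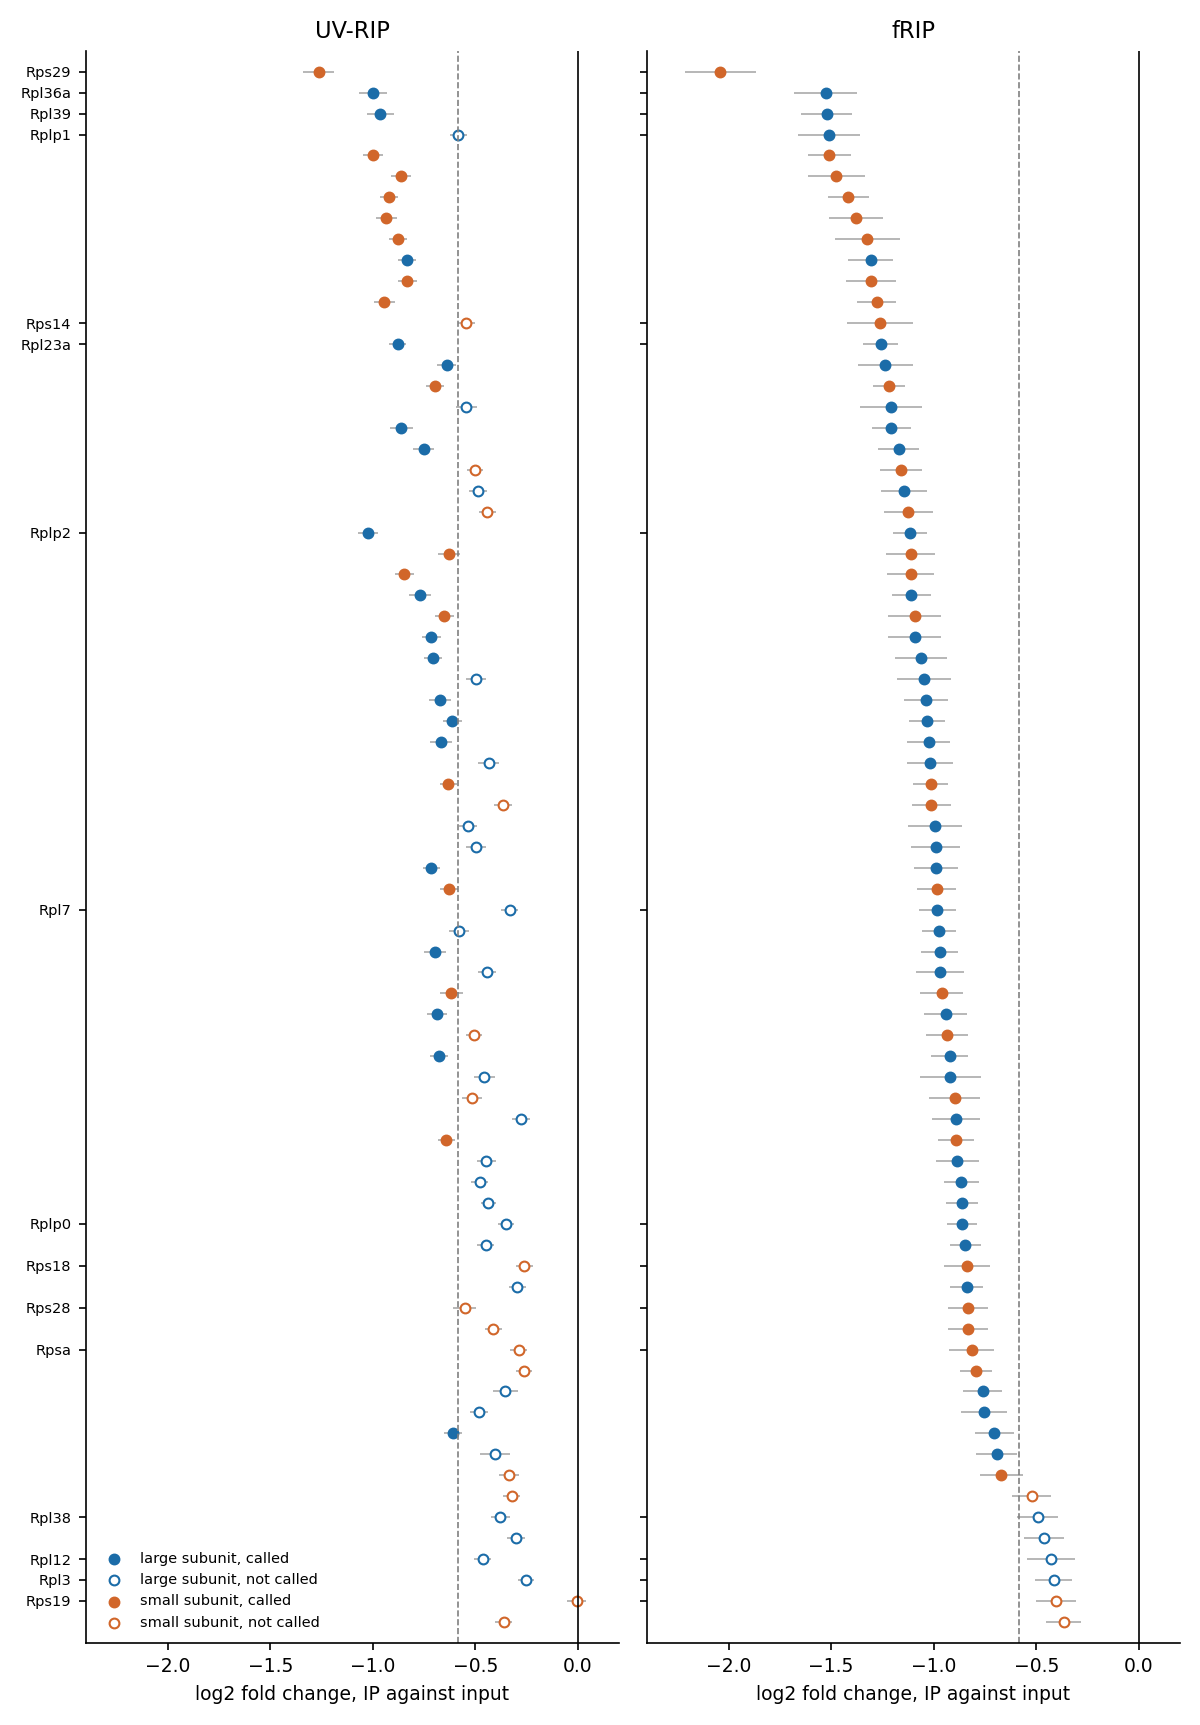
Log2 fold change of IP against input (± SE) of 75 members in UV-RIP and fRIP, ordered by the fRIP value, with the members described most fully labelled; filled points passed the fold and p thresholds, open points did not, and the dashed line marks a 1.5-fold lower level. All but 7 points are filled in fRIP and 35 are filled in UV-RIP, with both subunits spread over the whole order.

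The shorter members tended to be lower in the IP. Over the 25 members with the shortest longest transcript (383 to 794 bases) the median log2 fold change was -0.70 in UV-RIP and -1.22 in fRIP. In the middle 25 (830 to 1109 bases) it was -0.58 and -0.99, and over the 25 longest (1158 to 5179 bases) it was -0.46 and -0.89. Called lower were 16, 12 and 7 members of these 3 groups in UV-RIP and 24, 23 and 21 in fRIP. Across the 75 members Pearson's r with log2 transcript length was 0.418 in UV-RIP and 0.449 in fRIP (Spearman's rho 0.399 and 0.468). With log2 gene body length it was 0.392 and 0.513 (Spearman's rho 0.361 and 0.507). For the fRIP minus UV-RIP difference Pearson's r was 0.213 with transcript length and 0.353 with gene body length. All members share the same libraries, so this is a description. Rpl38, with a longest transcript of 457 bases, went against the trend at -0.38 in UV-RIP and -0.49 in fRIP.

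**Figure D4:**
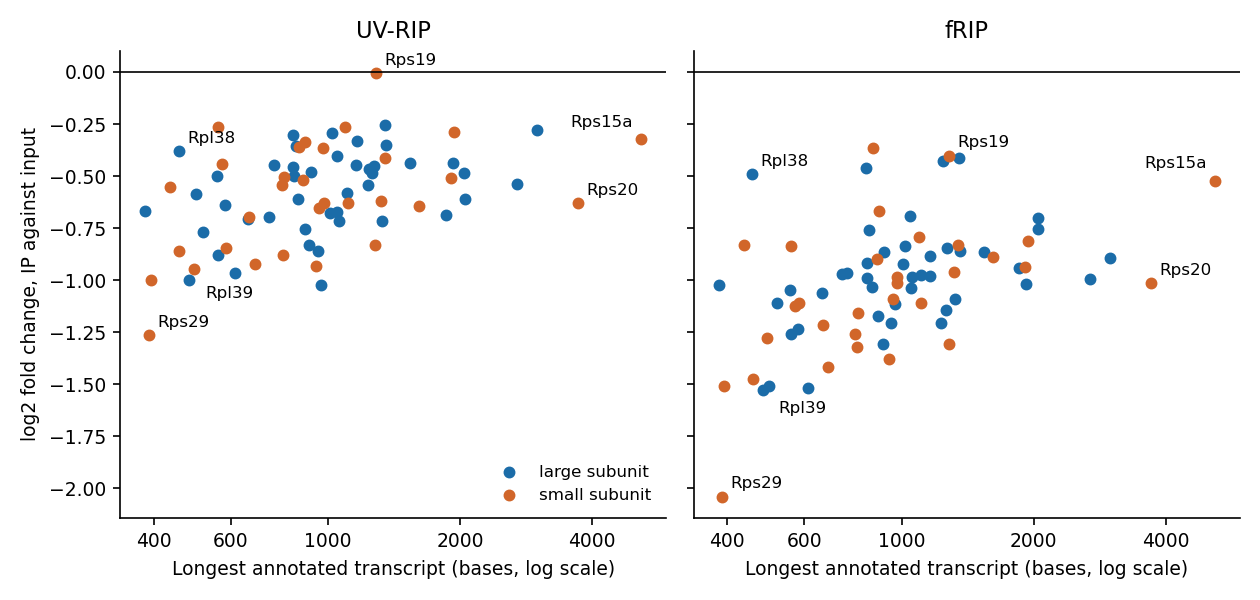
Log2 fold change of IP against input of 75 members by the length of their longest annotated transcript (log scale), in UV-RIP (left) and fRIP (right), coloured by subunit. The members under 800 bases reach the lowest values (Rps29 at -1.27 and -2.04), and Rpl38 is a short member with little change.

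Among other protein-coding genes a relation with length of the same sign was present. Across 9717 such genes averaging at least 100 UMIs a library, Pearson's r of the log2 fold change with log2 exonic length was 0.190 in UV-RIP and 0.350 in fRIP. Of the 2802 genes whose exonic length fell within the 10th to 90th percentile of the members (904 to 3569 bases), 8.85% were called lower in UV-RIP and 28.4% in fRIP, with medians of -0.21 and -0.31. The members' shares, 46.1% and 90.8% of those tested, and their medians lay beyond these values. With the trend on exonic length removed, 29 members were lower in UV-RIP and 68 in fRIP, against 4.77% and 9.9% of all genes. With a trend on the length of the whole gene body removed, an alternative chosen after the data were seen, 27 and 40 were lower, against 5.21% and 7.12%.

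Whether the IP to input ratio differed between fRIP and UV-RIP was tested by an interaction term in 1 fit of the 16 libraries with each lysate as a block, and an adjusted p under 0.05 counted as a call. It uses the same inputs as both comparisons above. Of the 76 members 51 were lower in fRIP relative to UV-RIP and 0 were higher, against 8.07% and 18.6% of all genes tested. The median difference was -0.42 on the log2 scale, and that of all genes tested was 0.15. Only 13 members were lower by over 1.5-fold, against 2.69% of all genes. Without replicate 4 the median was -0.21, and 38 members were lower and 1 was higher, against 8.65% and 18.2%. With the gene body trend removed 3 were lower and 1 was higher, with a median of -0.09 against 0.14 for all genes. The share of members called was no larger than that of all genes, of which 4.87% were lower and 12.2% higher, while their median stayed below that of all genes. Under this setting Rpl7 was still called (-0.33, adjusted p = 0.032), whereas Rplp1 (-0.45, adjusted p = 0.118) and Rplp0 (-0.22, adjusted p = 0.064) were no longer past the threshold in edgeR. Nor were Rps14, Rps18, Rpsa, Rps29, Rpl39, Rps19 and Rpl23a, at -0.42 to -0.03 with an adjusted p of 0.174 to 0.908.

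The 3 genes of the stalk had different values, and differences between them were not tested. Rplp1, an acidic stalk protein like Rplp2, had 181, 150, 163 and 177 CPM in the UV-RIP inputs and 114, 116, 108 and 109 in the IP. Its fRIP inputs had 208, 581, 287 and 221 CPM, and its fRIP IP libraries 83.8, 97.5, 125 and 113. The log2 fold change was -0.58 ± 0.04 (SE) in UV-RIP and -1.51 ± 0.15 (SE) in fRIP, and the difference of -0.93 ± 0.19 (SE; adjusted p = 6.3e-04, edgeR) was the largest of any member with 100 or more UMIs. It was -0.51 without replicate 4. Rplp2 was -1.02 in UV-RIP and -1.12 in fRIP, with a difference of -0.09 ± 0.09 (SE; adjusted p = 0.555, edgeR). Rplp0, the scaffold of the stalk, had between 282 and 335 CPM in the UV-RIP inputs and between 230 and 259 in the IP, and went from 418, 511, 522 and 476 CPM in the fRIP inputs to 222, 265, 303 and 273 in the IP. Its difference was -0.51 ± 0.08 (SE; adjusted p = 2.6e-05, edgeR), and -0.42 without replicate 4. Rpsa, which is both a protein of the small subunit and known as the laminin receptor, had a difference of -0.53 ± 0.14 (SE; adjusted p = 0.0049, edgeR), and -0.24 without replicate 4.

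The next largest differences were those of Rps29 at -0.79 ± 0.23 (SE; adjusted p = 0.012, edgeR) and Rps14 at -0.72 ± 0.20 (SE; adjusted p = 0.0086, edgeR). Rps14, whose loss is tied to the anaemia of the 5q- syndrome, had 202, 668, 272 and 233 CPM in the fRIP inputs against 105, 125, 150 and 129 in the IP. The input of replicate 4 was more than that of any other library, and without this replicate the difference was -0.33. For Rps29 it was then -0.30 with an adjusted p of 0.072, no longer past the threshold in edgeR. Rpl12, at the base of the stalk, had a difference of 0.04 ± 0.14 (SE). Without replicate 4 Rpl12 was the 1 member that was higher in fRIP, by 0.27 (adjusted p = 4.4e-04, edgeR).

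**Figure D5:**
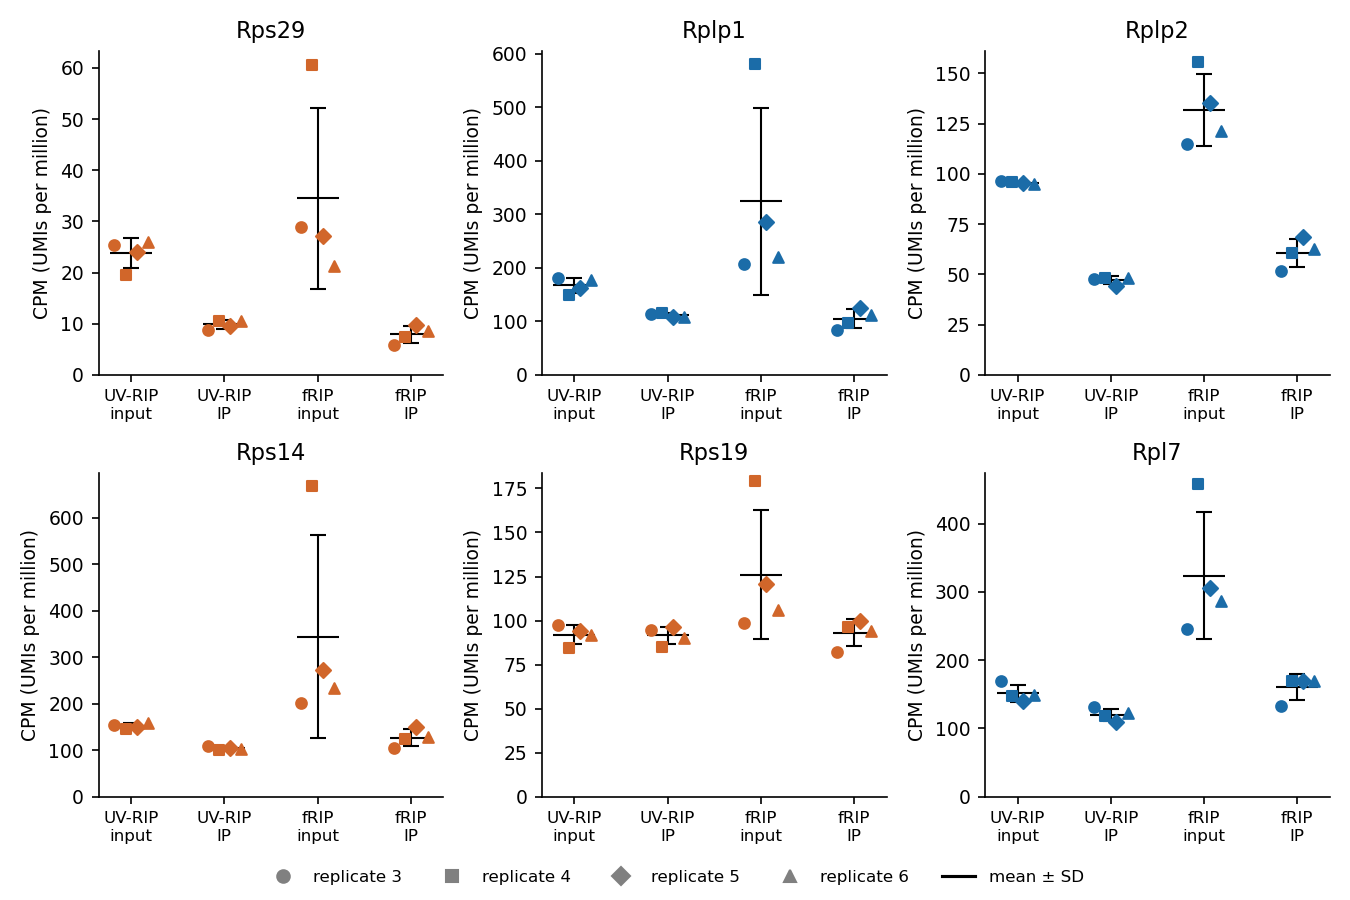
CPM of Rps29, Rplp1, Rplp2, Rps14, Rps19 and Rpl7 in each library of the 4 groups, with the mean ± SD (n = 4); marker shapes give the replicate number. The fRIP input of replicate 4 is the highest library in all 6 panels, at 668 for Rps14, and Rps19 overlaps between input and IP of UV-RIP on this scale.

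The inputs themselves differed. In fRIP input 53 of the 76 members were higher than in UV-RIP input and 0 were lower, against 10.6% and 9.44% of all genes tested, and the median log2 fold change was 0.69 (0.03 for all genes tested). For 66 members every fRIP input was above every UV-RIP input, against 19% of all genes and 31.9% of those averaging at least 100 UMIs. Without replicate 4 only 14 were called higher (9.18% of all genes), and the median was 0.46. With the gene body trend removed 10 were called higher (7.14% of all genes), with a median of 0.32. Other genes were higher in fRIP input too, with 5 of 8 mESC markers called (median 0.98, summed level 3862 to 4689 CPM against 2438 to 2604), 20 of 75 mitochondrial ribosomal protein genes (0.37) and 8 of 20 TOP and elongation factor genes (0.53). Their part in the result was not tested. Crosslinker, culture and lysate differ together here and cannot be told apart, and in bulk lysates neither can a change in the mix of cells and one in RNA per cell. Since these inputs are the denominators of the comparisons above, a higher fRIP input and a lower fRIP ratio are not separate observations. Rps14 had the largest difference at 1.18 ± 0.26 (SE; adjusted p = 0.0020, edgeR), and 0.61 without replicate 4. Rpl7, a protein of the large subunit, had 170, 147, 141 and 150 CPM in UV-RIP input and 246, 457, 306 and 287 in fRIP input, with no overlap and a log2 fold change of 1.09 ± 0.14 (SE; adjusted p = 1.3e-05, edgeR). It stayed at 0.87 without replicate 4. Rpsa was higher by 1.02 ± 0.16 (SE; adjusted p = 1.1e-04, edgeR), and by 0.70 without replicate 4.

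Rps28, Rpl38 and Rpl23a were the members whose inputs were nearest. Rps28, a small protein near the exit of the mRNA channel, had 42.2, 40.7, 43.9 and 40.1 CPM in UV-RIP input and 41.8, 52.1, 39.7 and 37.4 in fRIP input (log2 fold change 0.03 ± 0.10, SE). Even so it was lower in both IP groups, with 25.6 to 30.03 CPM in UV-RIP and 22.2 to 27.3 in fRIP. Rpl38, known for its part in the translation of Hox mRNAs, differed between the inputs by 0.22 ± 0.14 (SE). Rpl23a, which sits at the exit of the tunnel, differed by 0.24 ± 0.10 (SE), and its IP libraries, at 91.2 to 101 CPM in UV-RIP and 75.9 to 98.3 in fRIP, lay far below its inputs of 173 to 182 and 179 to 266. Without replicate 4 the input differences were -0.09 for Rps28, -0.01 for Rpl38 and 0.12 for Rpl23a.

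Both subunits were described side by side. In UV-RIP 19 of 44 large and 16 of 32 small subunit genes were called lower, with medians of -0.54 and -0.62. In fRIP the counts were 40 of 44 and 29 of 32, with medians of -0.99 and -1.05. The difference between the crosslinkers was called for 28 and 23 genes, and higher fRIP inputs for 31 and 22. Within single pairs the median of the large subunit minus that of the small subunit was -0.06, 0.12, 0.05 and 0.04 in UV-RIP and 0.04, 0.02, 0.11 and 0.02 in fRIP. The ratio of UMIs on large to small subunit genes was 1.33 ± 0.00520 in UV-RIP input, 1.35 ± 0.0179 in UV-RIP IP, 1.32 ± 0.0486 in fRIP input and 1.38 ± 0.0181 in fRIP IP (SD, n = 4 each). The groups of UV-RIP overlapped in this ratio, and so did those of fRIP, whose input of replicate 4 was the lowest library at 1.25. Within a lysate the IP had the higher ratio in all 8 pairs, and by the most in fRIP replicate 4, where it went to 1.39. These are descriptions over the members, with no test.

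Members with and without a snoRNA in an intron had close medians. In the annotation 30 members held 58 snoRNAs, 29 of these members were tested, and their median log2 fold change was -0.61 in UV-RIP and -0.99 in fRIP, against -0.55 and -1.02 for the 47 without. Called lower were 15 of the 29 and 20 of the 47 in UV-RIP, and 26 and 43 in fRIP. GC content had little relation to the changes, with a Pearson's r of 0.168 in UV-RIP and 0.071 in fRIP across 75 members. The mean UMI count had one of 0.439 and 0.342.

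Levels per length were compared in UV-RIP input, as CPM per kilobase of annotated exon. UMIs on introns count in the CPM, while the length is that of exons alone. As examples among the named members, and not as a ranking of all, Rplp1 had 336 CPM per kilobase, Rpl23a 211 and Rplp0 189. Rpl39 had 21.4, Rps19 19.6 and Rpl36a 17.5. The overlapped Rpl13a was lower, at 9.71. The unique part of each gene enters this level, since reads shared with pseudogenes were discarded, so it is no measure of mRNA copies.

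Start sites of the members were looked at in RefSeq promoter sequences (GRCm38.p6), which were at hand for 58 of the 78 by symbol. This is a description, and a link between these sequences and the IP to input ratios was not tested. An unbroken run of at least 8 C or T on the coding strand lay within 50 bases of an annotated start in 48 of the 58 (82.8%) and in 39.3% of 27025 genes. The motif CCGGAAG, on either strand, lay in the 300 bases around the start in 24 members (41.4%) and in 9.93% of all genes. Windows of 30 bases before and 10 from the start were read for 10 named members. Printed are the 4 with the longest runs at the start and Rpl39, chosen to show such a tract and not typical of the 10, with the longest run of C and T that ends in the last 20 bases in capitals.
Rplp2: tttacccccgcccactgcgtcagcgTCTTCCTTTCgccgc
Rps18: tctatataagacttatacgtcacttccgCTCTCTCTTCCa
Rpl38: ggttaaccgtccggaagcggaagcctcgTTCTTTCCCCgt
Rpl12: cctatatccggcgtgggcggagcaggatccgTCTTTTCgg
Rpl39: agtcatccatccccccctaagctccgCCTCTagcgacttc
These are chr7:141447621-141447660 (plus strand), chr17:33955656-33955695 (minus), chr11:114668550-114668589 (plus), chr2:32961682-32961721 (plus) and chrX:37085213-37085252 (minus). Runs of 10, 11, 10 and 7 bases cover or follow the start in Rplp2, Rps18, Rpl38 and Rpl12, and that of Rpl39 has 5. In the windows that are not printed the longest runs had 3 bases in Rpl36a, 4 in Rps19, Rps28 and Rpsa and 5 in Rplp0. Among members averaging at least 100 UMIs, Rplp2 was the second lowest and Rps18 among the highest in UV-RIP.

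Ribosomal protein genes outside the symbol rule were mixed. Of 9 such genes 4 were called lower in UV-RIP and 6 in fRIP, against 5.53% and 10.7% of all genes tested. Called enriched were 0, against 0.68% and 8.8%. Fau, which encodes a small subunit protein fused to a ubiquitin-like one, was -0.63 ± 0.06 (SE) in UV-RIP and -0.96 ± 0.13 (SE) in fRIP. With the gene body trend removed Fau was at -0.51 and -0.42, short of the fold threshold in both. Rps27l, a p53 target and paralog of Rps27, was -1.24 in UV-RIP and -1.73 in fRIP, and Rpl22l1 was -0.67 and -1.52. These 2 were named after their values were seen.

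Counts for other genes of the translation machinery stand beside the shares of all genes tested. Called lower were 5.53% of all genes in UV-RIP and 10.7% in fRIP, and called higher 0.68% and 8.8%. Among genes averaging at least 100 UMIs, 6.22% and 15.4% were called lower. Of 20 TOP mRNAs and elongation factor genes 2 were called lower in UV-RIP and 12 in fRIP, with medians of -0.35 and -0.68 and no gene enriched. Eef1a1, which encodes the factor that brings aminoacyl transfer RNA to the ribosome, was -0.20 ± 0.04 (SE) in UV-RIP and -0.84 ± 0.09 (SE) in fRIP. Its UV-RIP value, on the scale of total UMIs, lay near the median of all genes tested, -0.17. Rack1, a signalling scaffold on the small subunit, was -0.33 ± 0.04 (SE) and -0.90 ± 0.10 (SE). Of 26 ribosome biogenesis factors 3 were called lower in UV-RIP and 9 in fRIP, with medians of -0.30 and -0.54. Of 8 regulators of ribosomal protein mRNA and stress 0 were called lower past 1.5-fold in either, and 1 was called higher in fRIP. With no fold threshold 3 were lower and 2 higher in each. Of all genes 29% were then lower and 6.6% higher in UV-RIP, and 21.9% and 17.6% in fRIP. Of 75 mitochondrial ribosomal protein genes tested 9 were called lower in UV-RIP and 40 in fRIP, with medians of -0.35 and -0.63, and 1 was called higher in fRIP. Differences between these lists and the members were not tested.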

How the data were processed

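RNA of Sox2 IP and input from mESC was measured in 16 libraries. Read pairs of 34 bases were aligned by the authors with STAR (mm10), and only those with 1 place in the genome were kept. The deposited values are counts of UMIs per gene body of GENCODE vM16, made with featureCounts and not normalized. The build and STAR are also named in the submitters' processing notes. Versions of these tools and the strand setting are not given in the sources used here, so that reads of overlapping genes may have been lost or shared. Reads placed equally well on a gene and its pseudogene are absent from the counts.

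The counts were fitted in R 4.3.3 with edgeR 4.0.16 (glmQLFit and glmQLFTest). Total UMIs were the library sizes, and genes with at least 3 UMIs in 1 or more of the 16 libraries were kept. UV-RIP and fRIP were fitted separately with the replicate number as a block, since same-numbered IP and input share a lysate. Correlations of their deviations from the group means over 10208 genes were 0.0295 to 0.447 in UV-RIP and 0.114 to 0.606 in fRIP. The inputs of both crosslinkers were compared without a block. SE is the log2 fold change divided by the root of the quasi-likelihood F. Within each group the libraries differed by more than sampling noise (chi-square per degree of freedom of at least 1.52). By the study's account the 4 replicates of each crosslinker are biological and came from separate culture plates, 8 in all.

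The members and all gene lists were chosen with earlier results of these data known. Genes named are, among members averaging at least 100 UMIs, the 3 lowest and the 3 highest in each of the 4 comparisons, any called enriched (there were 0), and the stalk genes, Rpsa, Fau, Rack1 and Eef1a1. Some genes that the rule names, and some sequences, are not reported here. Members that missed the fRIP threshold, members with overlapped or very low counts, and 2 paralogs are named beside these. Coordinates, transcripts and overlaps are from GENCODE vM21 (GRCm38). By identifier and version 50604 of 53379 genes matched it, and 67 of the 78 members. DESeq2 1.42.0 was used for alternatives. The scripts were tested on simulated counts.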

Additional observations from a re-analysis of the deposited data

Results flagged for a closer look

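In 62 sets of 4 libraries or pairs, 9 held a value far from the other 3 by Dixon's test, where chance gives about 1 in 20. Of these 5 are ratios of the fRIP pair of replicate 4. The log2 IP to input ratio in this pair was -2.42 for Rps14 against -0.94 to -0.86 in the other pairs, -1.51 for Rps18 against -0.70 to -0.57, and -1.49 for Rpsa against -0.62 to -0.53. For Rps19 it was -0.90 against -0.27 to -0.17, and for Rack1 -1.46 against -0.79 to -0.66. The input library of the same replicate had 2.81% of its UMIs on misc RNA genes, against 0.349% to 0.620% in the other fRIP inputs.

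In UV-RIP the pair median over the members was -0.48 in replicate 4 and -0.62 to -0.60 in the others, and the ratio of Fau was -0.84 in replicate 6 against -0.57 to -0.54. The share of rRNA-like genes was 13.67% in 1 UV-RIP input against 13.97% to 14.02% in the others.

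The change between IP and input differed between the crosslinkers, by the interaction term, for 10 named members and 2 other named genes. The differences (fRIP minus UV-RIP, log2) were -0.93 for Rplp1, -0.79 for Rps29, -0.72 for Rps14, -0.65 for Rpl7, -0.58 for Rps18, -0.57 for Rpl39, -0.53 for Rpsa, -0.51 for Rplp0, -0.40 for Rps19 and -0.38 for Rpl23a. They were -0.65 for Eef1a1 and -0.57 for Rack1. Adjusted p by edgeR was at most 0.012 for these 12 genes, and 9 of the 10 members were past the threshold without replicate 4 as well, the exception being Rps29. The differences were then smaller, at -0.51 for Rplp1, -0.30 for Rps29, -0.33 for Rps14, -0.49 for Rpl7, -0.33 for Rps18, -0.32 for Rpl39, -0.24 for Rpsa, -0.42 for Rplp0, -0.22 for Rps19, -0.27 for Rpl23a, -0.48 for Eef1a1 and -0.35 for Rack1. With the gene body length trend removed only Rpl7 of the 10 members stayed past it (-0.33, adjusted p = 0.032), beside Eef1a1 (-0.51, adjusted p = 7.4e-04), while Rack1 did not (-0.33, adjusted p = 0.055).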

How the results depend on the processing

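Library size mattered most in UV-RIP. Members called lower went from 35 to 16 under TMM, to 17 with library sizes without Gm26917 and Gm42418, and to 16 with DESeq2's median-of-ratios, with medians of -0.39, -0.41 and -0.40 in place of -0.57. All genes called lower went from 1268 to 425, 505 and 235 under the same settings. Rps19 turned from -0.01 to 0.17 under TMM and under median-of-ratios. With no fold threshold 74 were lower. Removing the gene body length trend (chosen after the data were seen) gave a UV-RIP median of -0.48, 40 members lower in fRIP with a median of -0.59, and 10 members higher in fRIP input with a median of 0.32. Between the crosslinkers it gave 3 lower and 1 higher. The count lower between the crosslinkers, 51, became 31 with DESeq2 on total UMIs, 13 above 1.5-fold, and 26 with no replicate block. All genes lower went from 1852 to 1361, 616 and 1214. The replicate block changed no other count by over 1.5 times. Leaving out single replicates gave 34 to 39 members lower in UV-RIP, 63 to 70 in fRIP and 38 to 58 between the crosslinkers, with 0 to 1 higher. In fRIP input 14 (without replicate 4) to 61 were higher. The medians then ran from -0.62 to -0.55 in UV-RIP, -1.08 to -0.81 in fRIP, -0.52 to -0.21 between the crosslinkers and 0.46 to 0.80 in the inputs. The other settings run left the counts of members within 1.5 times and the medians within the spread between pairs, and no median of the members changed sign.

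Members overlapped by other genes, and bases shared with pseudogenes, limit what uniquely mapped 34-base read pairs can count. With 4 lysates per crosslinker and 1 fRIP input apart from the rest, the size of the fRIP changes varied between pairs, while all 76 members were lower in each pair.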
